A study of Bos taurus with 8 samples.

Results

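Transcripts of 10 genes that place, read or remove methyl groups on messenger RNA were followed in bovine whole blood. They are WTAP, METTL3 and METTL14, RNMT, the YTH-domain genes YTHDF1, YTHDF2, YTHDF3 and YTHDC1, and the demethylase genes ALKBH5 and FTO. They were found by gene symbol in the deposited table and make up 10 of 16966 symbols there and 27 of 43653 probes. The list was put together with earlier results of these arrays known, above all the differences of RNMT and WTAP. Differences of the 10 genes between the groups are therefore given as a description, without a test.

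In the CPE group, freshly drawn blood of Holstein Friesian cows (n = 5, female) was kept for 30 min with 10 µg/ml of a phenolic extract of cowpea leaf. In the CONTROL group the same kind of blood was kept without the extract, at 37 °C under 5% CO2 as in the CPE group. Blood was drawn after the cows had spent 60 days on a commercial probiotic, which both groups therefore share. Red and white cells were lysed differentially during RNA extraction, per the labels. The series text states that pooled RNA was hybridised, and each group was read on 4 single-colour arrays, which may therefore be repeat readings of 1 pool. All SDs below describe the spread between arrays and not between cows. Each group lay on a slide of its own, read with another version of the array grid than the other, so that slide, scan and treatment cannot be told apart in any difference below. Ages of the cows are not given in the sources used here.

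N6-methyladenosine (m6A) is the most abundant internal mark of mammalian messenger RNA. A complex of METTL3, METTL14 and WTAP with several partners writes it while the transcript is made. Proteins with a YTH domain bind the mark in the nucleus (YTHDC1) or in the cytoplasm (YTHDF1 to YTHDF3) and affect splicing, translation and decay of the message, and the dioxygenases ALKBH5 and FTO can take methyl groups off again. A separate methyl group sits on the guanosine cap at the 5′ end of the message. RNMT adds it, and cap-binding proteins of export and translation need it. These roles are known mainly from human and mouse cells, where both systems have been linked to the supply and turnover of messages in activated immune cells.

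Each probe is a DNA oligonucleotide of 60 bases that binds labelled copies of 1 stretch of a transcript. The probes that carry the comparisons below are printed 5′ to 3′ as the deposited table gives them. The first pair is listed under different WTAP transcript variants, variant 2 (NM_001046341) and variant 1 (NM_001113254). Whether either probe also reads the other variant was not checked. Capitals mark the 2 overlapping copies of ATTAAA, a form of the polyadenylation signal, in bases 31 to 60 of the first.

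WTAP A_73_117005: tgcactcttgatATTAAATTAAAtgtgccc
WTAP A_73_P309891: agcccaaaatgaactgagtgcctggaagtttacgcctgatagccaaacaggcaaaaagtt

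The RNMT pair are both probes of the cap methyltransferase (NM_001098942), bases 1 to 30 of the first and the whole of the second.

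RNMT A_73_103531: gtaatgttctaagaattccatttgcctcca
RNMT A_73_P340091: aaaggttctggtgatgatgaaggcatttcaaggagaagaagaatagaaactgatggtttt

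The YTHDF3 probes (NM_001192513) include a pair that read almost the same stretch. They share 55 of 60 bases, from base 1 of the first and base 6 of the second, and the capitals in bases 1 to 30 of each mark what is shared.

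YTHDF3 A_73_P111016: GTGTTCTTTTTGAATACCATGCATGGGGGT
YTHDF3 A_73_P151526: aagctGTGTTCTTTTTGAATACCATGCATG
YTHDF3 A_73_P338856: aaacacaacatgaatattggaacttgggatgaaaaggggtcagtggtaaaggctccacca

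The catalytic subunit METTL3 (NM_001102238) and its partner METTL14 (NM_001083714) are shown by 1 probe each, with AATAAA, the commonest polyadenylation signal, in capitals at the end of bases 31 to 60 of the METTL14 probe. The same stretch also holds ATTAAA, printed in lower case.

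METTL3 A_73_P374581: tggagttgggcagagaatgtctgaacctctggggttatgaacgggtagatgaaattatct
METTL14 A_73_P206317: tgaagatatttgttggattaaaccAATAAA

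AATAAA or ATTAAA was found on the forward strand in 3 of the 27 probes of these genes (11.1%) and in 5560 of all 43653 probes (12.7%). The GC content of the 27 probes lay between 35% and 55%, and none shared a run of 20 bases with a probe of another of the 10 genes.

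Large areas of these arrays were dim, and the first question for each probe was whether its spot lay in bright surroundings. A spot was called lit on an array when the 90th percentile of raw signal among its 61 nearest spots lay no more than 1.5 log2 units under the level that the brightest areas of that array reached. Of all non-control spots, 29.4% were lit on all 8 arrays, and 8 of the 27 probes (29.6%) were among them. The 8 belong to WTAP (2 probes), RNMT, METTL14, YTHDF1, YTHDF2 and YTHDF3 (2 probes). METTL3, YTHDC1, ALKBH5 and FTO had no probe lit on all 8 arrays, and 11 of the 27 probes were lit on none.

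Well above background by the scanner software on all 8 arrays were 8 of the 27 probes (29.6%), against 22.1% of all probes. Of these, 7 were lit on all 8 arrays, and the other was the second of the overlapping YTHDF3 probes. None of the 11 probes that were lit on no array was among them. On 7 of the arrays, between 29.7% and 50.02% of spots carried 1 identical lowest value, at which the software had floored them, and between 3 and 15 of the 27 probes sat at it. Array CPE 3 had no such floor, and there the commonest value was shared by 0.00913% of spots and by 0 of the 27 probes.

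Overall signal also differed between the slides. Processed signal had a 75th percentile of 205.9 ± 60.0 intensity units on CPE arrays and 110.7 ± 41.0 on CONTROL arrays (SD, n = 4 each). Arrays correlated at 0.971 to 0.997 within CPE, 0.982 to 0.996 within CONTROL and 0.908 to 0.961 between the groups. For the 8 lit probes, values below are log2 processed signal above the 75th percentile of the lit probes of the same array, called the lit scale. For the other 19 they are relative to the 75th percentile of all probes of the array, called the whole-array scale. A difference is CPE minus CONTROL. On the whole-array scale the median difference of the 14906 probes tested was −0.82, and on the lit scale that of the 7941 tested was 0.028.

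The labelled tissue, whole blood, was checked by markers of its cells. Probes of CD3E (T cells), CD79A (B cells), S100A12 (neutrophils), HBB (red cells) and PPBP (platelets) were well above background on all 8 arrays, as were CD14 and CSF1R (monocytes), while of the other monocyte markers VCAN was so on 7, CD68 on 4 and CD163 on 0. Marker lists differed in how far they moved with the groups in the lit area. The summed level of the 9 T cell probes was 41.7 to 47.6 in CPE and 32.2 to 36.4 in CONTROL, as multiples of the array's 75th percentile, and 6 of them were higher and 0 lower at an adjusted p under 0.05. The 2 NK cell probes summed to 34.0 to 38.6 in CPE and 17.0 to 19.8 in CONTROL, with 1 higher (GNLY, 1.26) and 1 lower (NKG7, −0.78). The 3 monocyte probes summed to 4.49 to 7.93 in CPE and 9.93 to 12.6 in CONTROL, with 0 higher and 2 lower. Sums overlapped between CPE and CONTROL for neutrophil (105 to 118 and 101 to 111), B cell (34.6 to 41.6 and 37.7 to 40.8) and red cell probes (105 to 168 and 101 to 124). Of the 5 neutrophil probes that of S100A12 was higher (by 0.25) and the other 4, of CXCR2 (2 probes), CSF3R and ALPL, were lower. The median difference of the 5 was −0.99, which their sum hides because S100A12 carries most of it (6.61 in CPE and 6.36 in CONTROL on the lit scale). The NK cell sum was likewise mostly GNLY (5.06 in CPE, against 1.25 for NKG7). Of the 4 B cell probes 0 were higher and 1 was lower, and neither of the 2 red cell probes passed. The part of cell composition in the results below was not tested, and fewer cells of a type cannot be told apart from less RNA per cell.

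Among the writers with a lit probe, WTAP gave the larger difference, and it came from 1 of its 2 lit probes. WTAP is the subunit that holds METTL3 and METTL14 in nuclear speckles. Probe A_73_117005, listed under transcript variant 2, read 1943, 1505, 1562 and 1701 intensity units on CPE arrays 1 to 4, against 859.7, 452, 667 and 277 on CONTROL arrays 1 to 4. Every CPE array was above every CONTROL array, with CONTROL 4 the lowest. On the lit scale it averaged 1.46 ± 0.36 on CPE arrays and −0.41 ± 0.57 on CONTROL arrays (SD, n = 4 in each group), a difference of 1.87 or 3.65-fold. On the whole-array scale the same probe differed by 0.74.

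The other lit WTAP probe, A_73_P309891, listed under variant 1, read 666, 533, 357 and 617 on CPE arrays, against 559, 561, 520.4 and 464 on CONTROL arrays. The groups overlapped in raw signal and on the lit scale, where it averaged −0.20 ± 0.10 in CPE and −0.39 ± 0.06 on CONTROL arrays (SD, n = 4 per group). Its difference was 0.19 (1.14-fold) on the lit scale and −0.94 on the whole-array scale, so its direction depends on the scaling.

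The 3 remaining WTAP probes, all listed under variant 1, were not lit on all 8 arrays and scattered widely. A_73_P062569 was lit on CPE 1 and on CONTROL 1 to 3, and the other 2 probes were lit on no array. A_73_P062569 read 678, 7.51, 772 and 6.95 on CPE arrays, against 842, 729, 859 and 9.15 on CONTROL arrays. A_73_P076926 was likewise at the floor on CPE 4 and CONTROL 4, with 25.3, 14.3, 672 and 6.95 in CPE and 237, 198, 229.5 and 9.15 in CONTROL. A_73_P032673 was near the floor on every array except CPE 1 and CPE 3, where it read 82.8 and 2408, and no fold is given for it because no CONTROL array was well above background. The SDs of these 3 probes were 2.55 to 3.67 in CPE, the groups overlapped in all 3, and the first pair was well above background on 2 CPE and 3 CONTROL arrays each.

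METTL14, the RNA-binding partner of the catalytic subunit, differed little at its lit probe. A_73_P206317 read 42.3, 49.3, 28.2 and 45.2 on CPE arrays, against 48.6, 53.7, 48.7 and 47.7 on CONTROL arrays. The groups overlapped on the lit scale, at −3.91 ± 0.16 in CPE and −3.79 ± 0.15 on CONTROL arrays (SD, n = 4 per group), a difference of −0.12 that was 0.094 with normexp background correction. Its second probe was well above background on CPE 3 alone.

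METTL3, the catalytic subunit itself, could not be followed reliably. None of its 3 probes was lit on all 8 arrays, and the groups overlapped in each. A_73_121002 was well above background on 3 CPE arrays and on 0 CONTROL arrays, while A_73_P046311 was so on 1 CPE and 3 CONTROL arrays. That probe read 5.42, 7.10, 129.9 and 6.95 on CPE arrays, against 165, 125, 149 and 9.15 on CONTROL arrays. The probe printed above, A_73_P374581, was well above background on 2 arrays of each group.

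RNMT, the cap methyltransferase, had the largest difference of the 8 lit probes. A_73_103531 read 1198, 1216, 779 and 978 on CPE arrays, against 425, 93.0, 270.4 and 274 on CONTROL arrays. All 4 CPE arrays were above all 4 CONTROL arrays, and CONTROL 2 was the lowest. On the lit scale it averaged 0.76 ± 0.20 in CPE and −1.56 ± 0.96 on CONTROL arrays (SD, n = 4 per group), a difference of 2.32 or 4.99-fold, which was 1.86 without CONTROL 2 and 1.19 on the whole-array scale.

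The second RNMT probe, printed whole above, did not show this difference. A_73_P340091 read 9.89, 7.10, 179 and 6.95 on CPE arrays, against 9.48, 57.7, 149.9 and 9.15 on CONTROL arrays. It was lit on no array, was well above background on 1 CPE and 2 CONTROL arrays, and its groups overlapped. The higher RNMT reading thus rests on 1 spot per array.

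**Figure D1:**
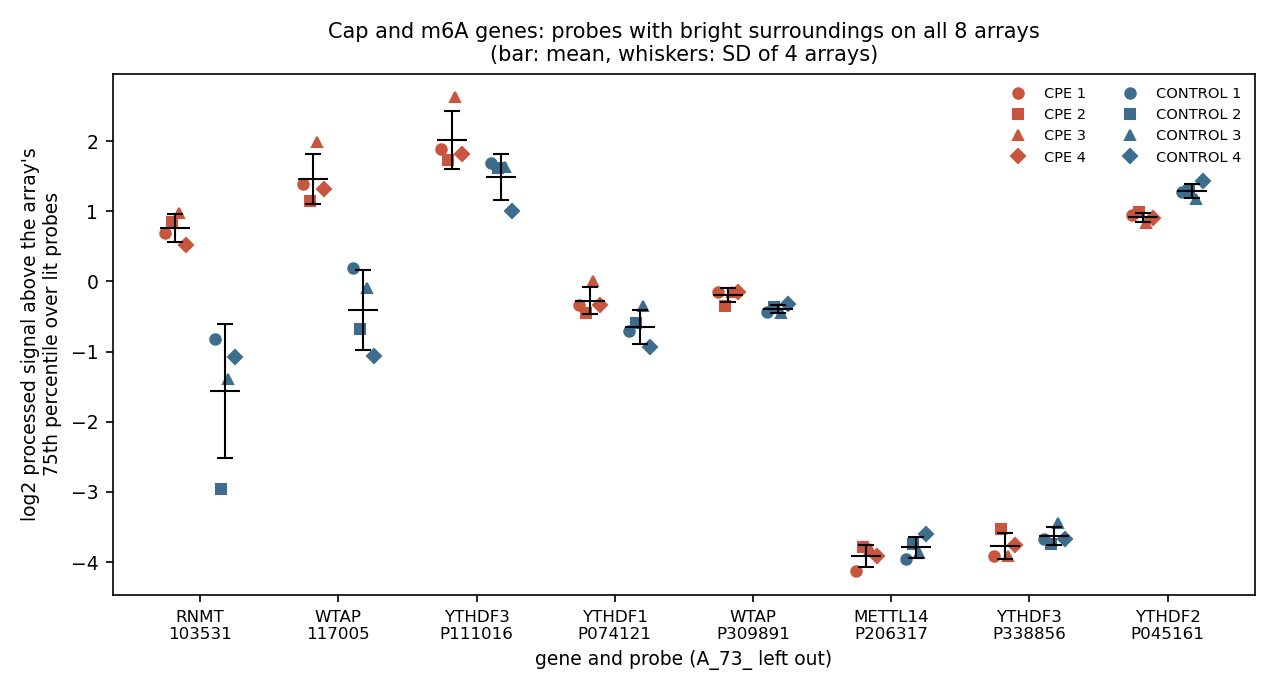
Log2 processed signal above the 75th percentile of the lit probes (vertical axis) for the 8 probes lit on all 8 arrays, by gene and probe (horizontal axis), with CPE left of CONTROL. Points are arrays, bars are means and whiskers are SDs of 4 arrays. RNMT A_73_103531 and WTAP A_73_117005 lie apart from the rest, with differences of 2.32 and 1.87, and CONTROL 2 is the lowest RNMT array.

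Among the cytoplasmic readers, YTHDF2, which recruits the deadenylation machinery to marked messages, was the only one with a lower reading in CPE at a lit probe whose groups did not overlap. Its single probe A_73_P045161 (NM_001076253) read 1426, 1344, 705 and 1278 on CPE arrays, against 1819, 1756, 1607 and 1560.3 on CONTROL arrays. It averaged 0.92 ± 0.06 in CPE and 1.29 ± 0.10 on CONTROL arrays (SD, n = 4 per group). The difference was −0.37, or 1.30-fold lower in CPE. The whole-array scale lowers the difference of every lit probe by the same amount, so the negative sign there is no separate check. Of the 42 lit probes tested among the 60 spots nearest to the YTHDF2 spot by row and column, 34 were higher in CPE.

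YTHDF3, which acts together with the other cytoplasmic readers, had a small difference at A_73_P111016. It read 2739, 2258, 2441 and 2405 on CPE arrays, against 2429, 2215, 2203 and 1156 on CONTROL arrays. The signals of the groups overlapped, whereas on the lit scale every CPE array was above every CONTROL array, at 2.01 ± 0.41 in CPE and 1.48 ± 0.33 on CONTROL arrays (SD, n = 4 per group). The difference of 0.53 (1.44-fold) was 0.16 without CPE 3 and CONTROL 4, the highest CPE and the lowest CONTROL array, and −0.60 on the whole-array scale.

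The overlapping YTHDF3 probe, A_73_P151526, gave another sign on the whole-array scale. It read 1825, 971, 2426 and 1332 on CPE arrays, against 933, 516, 667 and 89.4 on CONTROL arrays, and was well above background on all 8. Its spot was lit on 3 CPE arrays and on 0 CONTROL arrays. On the whole-array scale, the one that both probes have, it differed by 0.96 where the probe sharing 55 of its 60 bases differed by −0.60.

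The other YTHDF3 probe lit on all 8 arrays, A_73_P338856, read 49.2, 59.1, 26.3 and 50.6 on CPE arrays, against 59.2, 53.9, 65.1 and 45.5 on CONTROL arrays. Its groups overlapped and differed by −0.14, or 0.11 with normexp. The remaining YTHDF3 probes were well above background on 1 and 3 CPE arrays and on 0 CONTROL arrays.

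YTHDF1, a reader linked to translation of marked messages, likewise depended on which spot was read. A_73_P074121 (NM_001191416), lit on all 8 arrays, read 589, 499, 399 and 542 on CPE arrays, against 463, 477, 557 and 302 on CONTROL arrays. The groups overlapped, with means of −0.27 ± 0.20 in CPE and −0.65 ± 0.24 on CONTROL arrays (SD, n = 4 per group), a difference of 0.37 (1.30-fold) on the lit scale and −0.75 on the whole-array scale.

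The other YTHDF1 probe, A_73_P127026, read 332, 379, 315 and 296 on CPE arrays, against 9.48, 10.15, 8.03 and 17.0 on CONTROL arrays. Its spot was lit on all 4 CPE arrays and on 0 CONTROL arrays, where it was not well above background. On the whole-array scale it averaged 0.74 in CPE and −3.26 in CONTROL. Where each CONTROL array is set to its lowest signal that was well above background, the CPE signal is 3.74-fold higher, or 3.40-fold without CPE 4. With normexp background correction the log2 difference was 1.33. Because the spot was dim on every CONTROL array, this fold compares signals and sets no lower bound for the transcript.

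**Figure D2:**
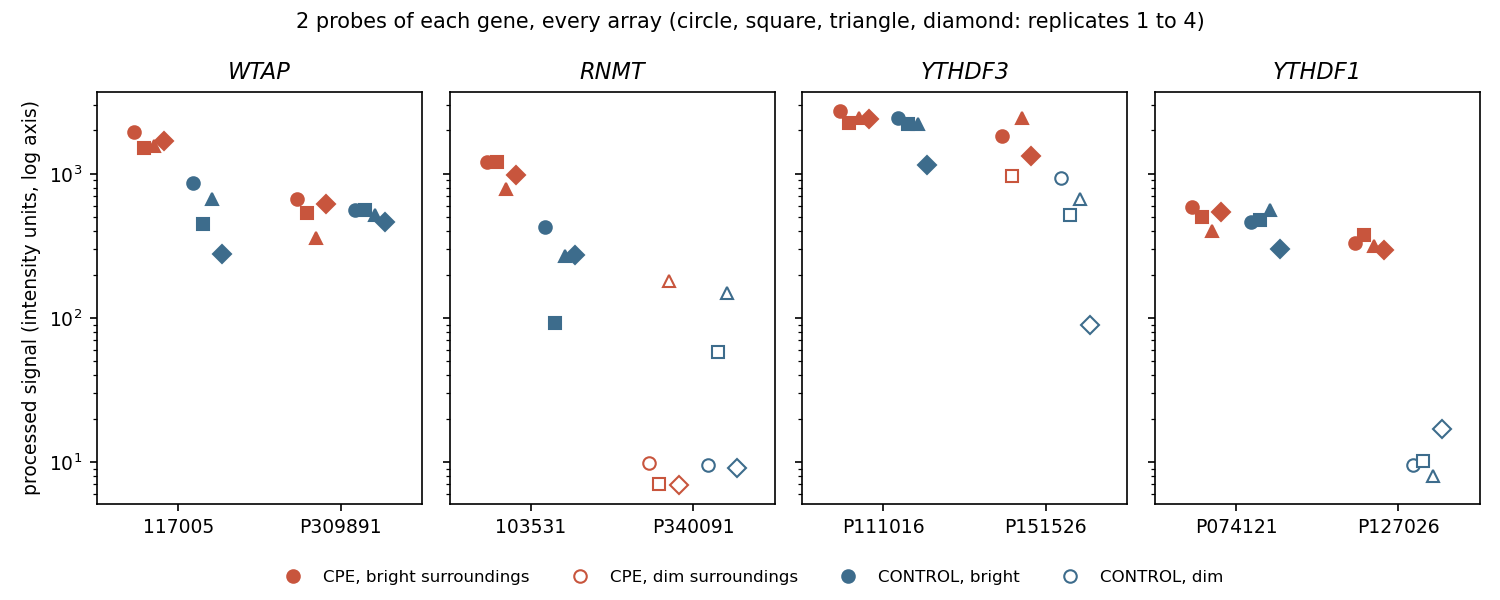
Processed signal on a log axis (vertical) of 2 probes of each of WTAP, RNMT, YTHDF3 and YTHDF1 (horizontal), CPE left of CONTROL, with a shape per replicate number. Filled points are arrays on which the spot was lit, open points those on which it was dim. The second YTHDF1 probe is filled at 296 to 379 in CPE and open at 8.03 to 17.0 in CONTROL, while its first probe is filled in both groups and overlaps.

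YTHDC1, the nuclear reader linked to splicing and export, was measured in dim surroundings, apart from 1 probe on CPE 2. A_73_118856 (NM_001046520) read 617, 30.8, 2983 and 52.7 on CPE arrays, against 9.48, 24.1, 8.03 and 9.15 on CONTROL arrays, and was lit on no array. It was well above background on 3 CPE arrays and no CONTROL array. The groups overlapped on the whole-array scale, where the measured means were 0.24 in CPE and −3.17 in CONTROL. The replacement of CONTROL values used for YTHDF1 would give 2.66-fold here, and 1.28-fold without CPE 3, so this fold rests on that array. Its probe A_73_P352186 was well above background on 2 CPE and 3 CONTROL arrays, with overlapping groups. A_73_P368051, lit on CPE 2 alone, was well above background on 3 CPE arrays and on 0 CONTROL arrays. Its groups did not overlap, with a difference of 1.25 on the whole-array scale that was 0.14 with normexp.

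Neither eraser had a probe lit on all 8 arrays. ALKBH5, the nuclear m6A demethylase, came close, with A_73_P065481 (NM_001205517) lit on 3 CPE and 4 CONTROL arrays. It read 147, 32.7, 101 and 115 on CPE arrays, against 96.0, 92.8, 106 and 41.6 on CONTROL arrays. The groups overlapped, and CPE 2, the array on which the spot was dim, was the lowest of all 8. It was well above background on 3 arrays of each group, and the difference was −0.82 on the whole-array scale and 0.13 without scaling.

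FTO, the demethylase that also acts on the mark next to the cap, was read weakly at its 3 probes (NM_001098142). A_73_P288741 read 52.1, 24.3, 255 and 6.95 on CPE arrays, against 74.7, 59.1, 78.3 and 9.15 on CONTROL arrays, and was well above background on 2 CPE and 3 CONTROL arrays, with overlapping groups. A_73_104006 read 165 and 74.8 on CPE 2 and CPE 3 and at most 10.15 elsewhere. A_73_P167962 was not well above background on any array, so no fold is given.

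On the lit scale the SDs of the 8 lit probes were 0.065 to 0.41 in CPE and 0.060 to 0.96 in CONTROL. On the whole-array scale, which all 27 probes share, their SDs were 0.47 to 0.87 in CPE and 0.17 to 1.12 in CONTROL, and those of the other 19 were 0.41 to 3.67 in CPE and 0.18 to 2.60 in CONTROL. There, 0 of the 8 and 14 of the 19 exceeded 1 in CPE. In processed signal before scaling, CPE 3 was the brightest CPE array for 13 of these 19 probes. Of the 8 lit probes 4 had groups that did not overlap (51% of all lit probes tested). In the limma fit over all lit probes 2 of the 8 were past an adjusted p of 0.05 as higher and 1 as lower, where 48.5% of all 7941 were past it, 24.1% higher and 24.4% lower. Over the whole array 10 of the 27 could be tested, with 1 higher and 1 lower, where 39% of 14906 were past the threshold, 17.3% higher and 21.6% lower. YTHDF1 A_73_P127026, well above background on 4 CPE and 0 CONTROL arrays, entered that test through CPE alone. The split of calls moved with the scaling. In the lit area it was 1914 higher and 1934 lower, against 436 and 1032 without scaling and 3455 and 2047 with local centring. Over the whole array it was 2585 and 3222, against 3239 and 1146 without scaling. It moved with the filter as well, to 205 higher and 3473 lower among the 9643 probes well above background on all 8 arrays. Since the genes were chosen from this contrast, nothing is read from these counts.

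The surroundings of the lit spots were not alike. The 60 nearest spots of each probe were averaged on the whole-array scale, and their difference ranged from −1.87 to 1.103 over the 27 probes and had the sign of the probe's own difference in 21 of them. Around 6 of the 8 lit probes it lay between −1.30 and −0.998. Around RNMT A_73_103531 it was −0.18 and around WTAP A_73_117005 −0.04. By this mean, both neighbourhoods were brighter on the CPE slide relative to the other lit neighbourhoods. For RNMT this depended on the measure. The local raw signal used to call its spot lit overlapped, at 1540.5 to 1899 in CPE and 1521.5 to 1833 in CONTROL. The median lit-scale difference of its tested neighbours by row and column was 0.35, below the 0.46 around YTHDF3 A_73_P111016. By scanned position these medians were 1.36 and 0.39. Relative to their own neighbours RNMT was 1.37 and WTAP 0.78 higher in CPE, against 0.40 at most for the other lit probes.

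**Figure D3:**
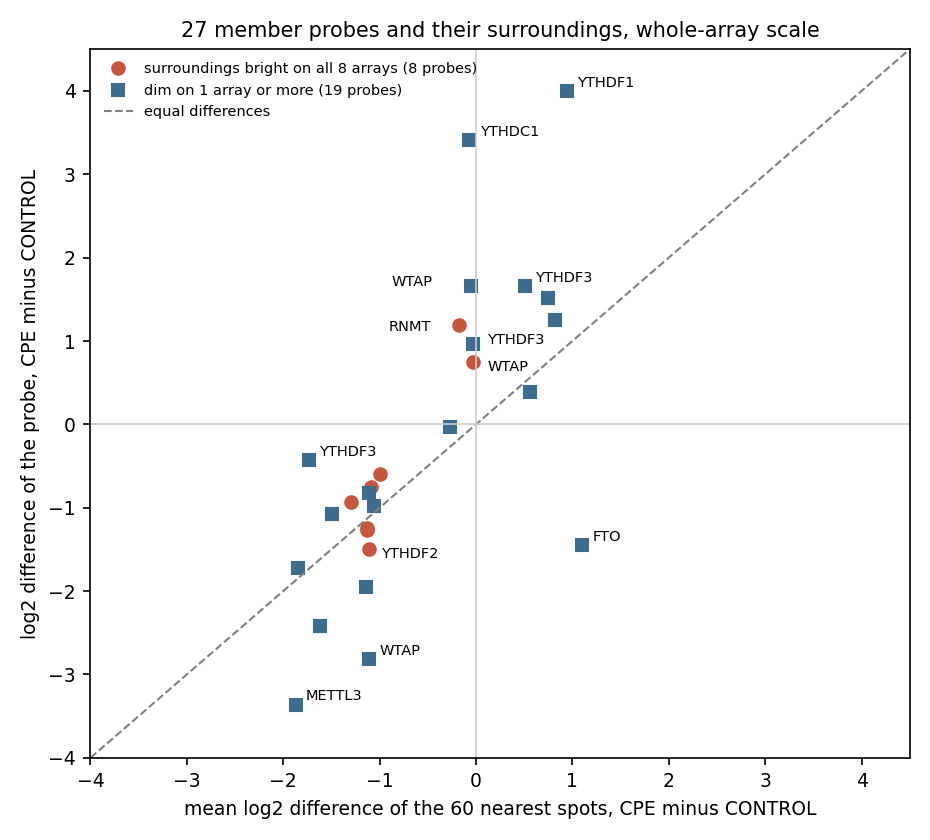
Log2 difference of each of the 27 probes (vertical axis) against the mean log2 difference of its 60 nearest spots (horizontal axis), both CPE minus CONTROL on the whole-array scale. Circles are probes lit on all 8 arrays, squares the other 19, and the dashed line marks equal differences, with probes at background plotted as measured. RNMT at 1.19 and WTAP at 0.74 are the circles near a neighbour difference of 0, while the other 6 circles lie near −1.

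These 2 spots also lay close to the limit of the lit area. On its dimmest array, WTAP A_73_117005 was 0.38 log2 units above the limit (CONTROL 4) and RNMT A_73_103531 0.48 (CPE 3), with YTHDF3 A_73_P111016 at 0.40 (CONTROL 4). The median over all spots lit on all 8 arrays was 0.88. Of these genes, the nearest probe outside the limit was that of ALKBH5, at −0.91 on CPE 2. With a stricter limit of 1 log2 unit 5 of the 8 probes stayed lit, and those lost were RNMT A_73_103531, WTAP A_73_117005 and YTHDF3 A_73_P111016. With a wider neighbourhood of spots RNMT alone was lost.

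By distance between patterns over the 8 arrays, the probes most like RNMT A_73_103531 among 6991 lit probes well above background on all 8 were those of RPS6KB2 (a ribosomal protein S6 kinase, at a Euclidean distance of 0.20), XBP1 (a transcription factor of the unfolded protein response, 0.56) and COX4I1 (a subunit of cytochrome c oxidase, 0.75). Their differences were 2.26, 2.70 and 2.05 on the lit scale. All 3 lay close to the RNMT spot on the array, 8, 7 and 6 rows away and no more than 1 column off. Of the 60 spots nearest to RNMT by row and column, which hold none of these 3, 12 had a probe tested in the lit area. Of the 12, 10 were higher in CPE, with a median difference of 0.35, 7 were called higher and 1 lower, and none reached the 2.32 of RNMT. The 60 nearest by scanned position hold 2 of the 3 and gave 12 of 13 higher, with a median of 1.36, so this second count repeats in part how they were found. Both counts were chosen after the values were seen.

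Around WTAP A_73_117005, 5 of 7 tested neighbours by row and column were higher in CPE, with a median of 0.76, and 9 of 10 by scanned position, with a median of 0.88. None reached its own 1.87. Its nearest patterns were POLD3 (a subunit of DNA polymerase delta, distance 0.65), CDC34 (a ubiquitin-conjugating enzyme, 0.66) and DHRSX (a dehydrogenase, 0.75), at 280 to 408 rows from it, with differences of 1.85, 1.77 and 1.59. Around the other 6 lit probes 33 to 42 of the 60 neighbours by row and column were tested, with medians between 0.037 and 0.46, and 37 to 45 by scanned position, with medians between −0.14 and 0.39. The second lit WTAP probe, A_73_P309891, was most like KATNA1 (0.083), H3F3B (0.090) and ZNF331 (0.092), of which the H3F3B spot was 4 rows away in the same column.

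Genes of the same pathways outside the list of 10 changed in both directions, at the rate of the array. A list of 46 further genes of m6A writing and reading, cap synthesis and binding, decapping, methyl donor supply and deadenylation had probes for 44, and 26 probes of 19 genes were tested in the lit area. At an adjusted p under 0.05 (limma, over all 7941 lit probes) 6 were higher in CPE, 7 were lower and 13 passed in neither direction, or 50% against 48.5% of all lit probes. Their median difference was −0.11 against 0.028. At an unadjusted p under 0.05 there were 16.

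Of the partners of WTAP in the writer complex, 3 were lower in CPE. The E3 ligase-like subunit CBLL1 was lower at both lit probes, and A_73_115941 read 395, 377, 101 and 366 on CPE arrays, against 659, 621, 632 and 533 on CONTROL arrays. All CPE arrays were below all CONTROL arrays, with CPE 3 the lowest, and the difference was −0.98 (SE 0.24, limma adjusted p = 0.00954, n = 4 each). ZC3H13, which keeps the complex in the nucleus, fell by 0.52 on the log2 scale (SE 0.093, limma adjusted p = 0.00229), with 75.8 to 129 in CPE and 154 to 183 in CONTROL, a call lost with normexp (−0.18, adjusted p = 0.680) and without scaling (adjusted p = 0.0587). VIRMA, the scaffold subunit listed as KIAA1429, fell by 0.33 (SE 0.11, limma adjusted p = 0.0306), with 71.4 to 122 in CPE and 138 to 153 in CONTROL, a call lost with normexp (−0.01, adjusted p = 0.977) and 8 other settings. Another VIRMA probe, lit on 0 arrays, was well above background on all 4 CPE arrays and on 0 CONTROL arrays.

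METTL5, which methylates 18S ribosomal RNA, was the only one of the 5 writers tested in the lit area that rose there. Its probe A_73_P506508 read 1061, 1360, 665 and 1091 on CPE arrays, against 596, 604, 604 and 302 on CONTROL arrays, without overlap. The difference was 1.18 (SE 0.18, limma adjusted p = 0.000902, n = 4 each), and its second lit probe rose by 0.34. The cap-adjacent m6A writer PCIF1 passed in neither direction at 2 lit probes.

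Of the other readers, RBMX, a nuclear protein that binds marked transcripts, rose by 1.08 (SE 0.29, limma adjusted p = 0.0157), with 774 to 1416 in CPE and 251 to 785 in CONTROL, CONTROL 4 being far below the others. FMR1, which binds messages on polysomes, had lit probes called on both sides on this scale. A_73_P310271 rose by 1.48 (SE 0.48, limma adjusted p = 0.0316), which was 0.95 without CONTROL 4, and A_73_P077911 fell by 0.37 (SE 0.099, limma adjusted p = 0.0140). The call of the first was lost with normexp (adjusted p = 0.0928), and that of the second with normexp (0.117) and with local centring, where its difference was −0.00038. Its other 2 lit probes, at −0.60 and 0.36, did not pass.

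No lit probe of the enzymes that work next to RNMT on the cap passed. RNGTT, which adds the guanosine, differed by −0.10, RAMAC, the activating subunit of RNMT, by −0.094, CMTR1, which methylates the first transcribed nucleotide, by −0.54, and TGS1, the cap hypermethylase of small nuclear RNA, by −0.34. The cap-binding protein EIF4E2 differed by 0.0002. The methyl donor enzyme AHCY (0.39) and the deadenylase subunits CNOT7 and CNOT8 did not pass either.

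Decapping genes were called in both directions on the lit scale, and so were different probes of DCP1A, the activator of the decapping enzyme. Its probe A_73_114513 rose by 1.37 (SE 0.16, limma adjusted p = 0.000276), with 64.5 to 164 in CPE and 46.3 to 71.7 in CONTROL. Its probe A_73_109784 fell by 0.34 (SE 0.094, limma adjusted p = 0.0166). The first lost its call with normexp, at 0.75 (adjusted p = 0.144), and was well above background on 3 of 4 CONTROL arrays, and the second lost its call with local centring, at −0.09 (adjusted p = 0.138). DCPS, which clears the cap left after decay, rose by 0.53 (SE 0.16, limma adjusted p = 0.0230), and DCP1B fell by 0.47 (SE 0.090, limma adjusted p = 0.00319). DXO did not pass.

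**Figure D4:**
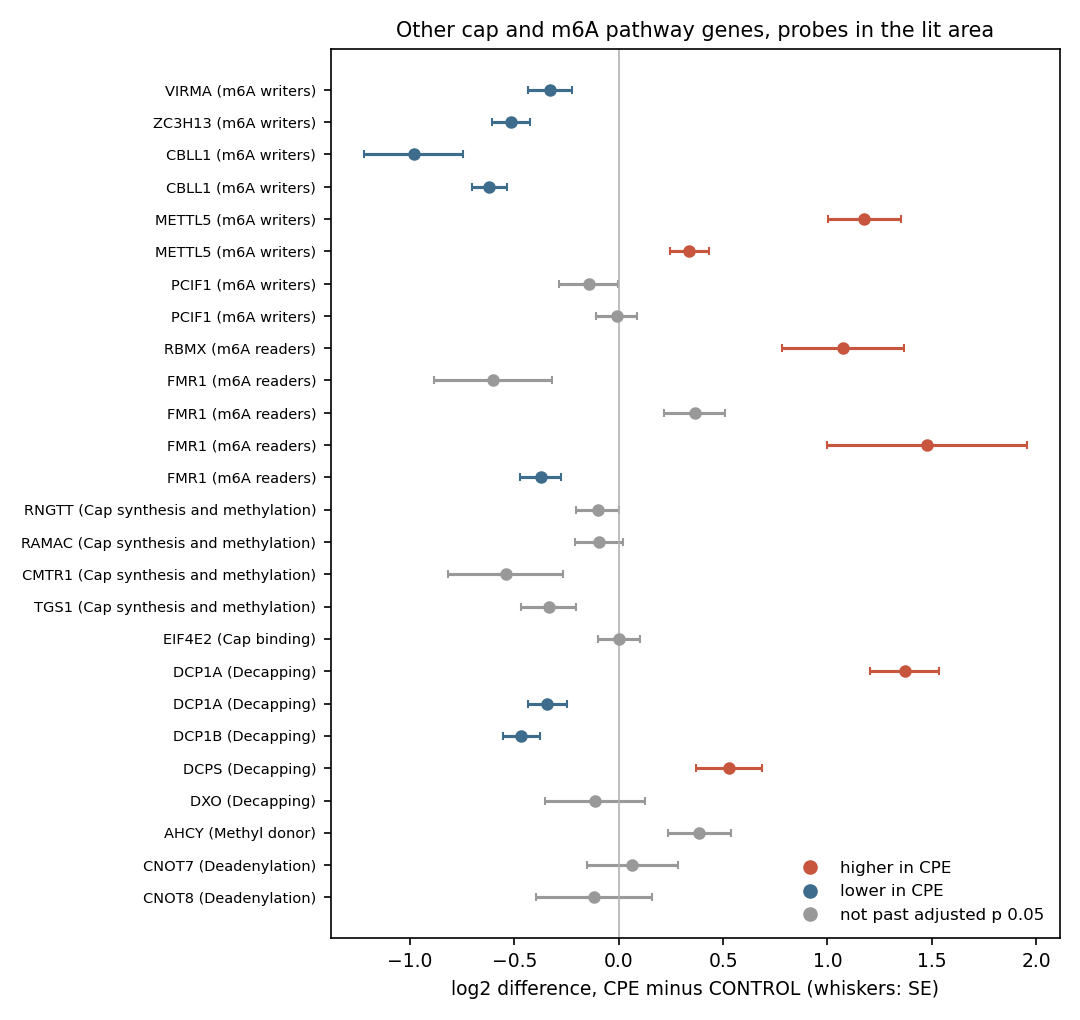
Log2 difference, CPE minus CONTROL, on the lit scale (horizontal axis) of the 26 lit probes of 19 further pathway genes, grouped by role (vertical axis), with whiskers for the SE of the limma fit. Red points passed as higher (6), blue as lower (7) and grey passed in neither direction (13). METTL5 and CBLL1 agree between their 2 probes, whereas DCP1A and FMR1 have probes on both sides of 0.

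The whole-array scale puts every lit probe 1.13 log2 units lower in CPE relative to CONTROL than the lit scale does. On it, 0 of the 6 higher probes passed and 3 were below 0, with METTL5 at 0.05 and −0.79, RBMX at −0.05, FMR1 at 0.35, DCP1A at 0.24 and DCPS at −0.60. All 7 lower probes passed as lower on both scales. Since the shift makes every lit difference more negative, this is no separate check of them.

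Over the whole array, dim areas included, 49 probes of 31 further pathway genes were tested, of which 10 were higher and 10 lower, or 40.8% against 39% of all probes, with a median of −0.74 against −0.82. Unadjusted, 28 had a p under 0.05. Of the 10 higher probes 9 were not well above background on all 4 CONTROL arrays and so entered the test through CPE alone, whereas the 10 lower probes were well above background on all CPE arrays. Among the 36 probes well above background on all 8 arrays, 1 was higher and 14 were lower.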

How the data were processed

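Signals were read from 8 single-colour (Cy3) bovine Agilent arrays, 4 of CPE and 4 of CONTROL. The deposited scanner files hold spot intensity made with Agilent Feature Extraction 10.10.1.1, per the submitters' processing notes, and their processed intensity had been background-subtracted and floored by that software. The deposited averages table holds log2 values per group. Scanner values scaled to the 75th percentile, centred per probe on the 8-array median and averaged per group matched them with r = 0.999996 for CPE and 0.999993 for CONTROL over 43412 probes.

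Each array held 45220 spots, of which 1417 control spots were left out, as were spots marked as outliers (12 to 73 per array, none of the 27 member spots). No spot was saturated. The log2 processed signal of each probe was taken minus the array's 75th percentile, over lit probes or over all. A spot was lit when the 90th percentile of log2 raw median signal over its 61 nearest spots by row and column exceeded the array's 90th percentile of such values minus 1.5. That limit was 828 to 1128 intensity units. Probes entered a test if they were well above background on every array of either group. The comparison used limma 3.58.1 under R 4.3.3 (lmFit and eBayes, two-sided, Benjamini-Hochberg over all probes tested, 0.05), with no term for slide, which coincides with group. The number of arrays, the dim areas and the coincidence of slide and group limit the precision.

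The members, the further pathway list, the lit area and the marker lists were chosen with earlier results of these data known. Named were all members, up to 3 called rises and falls per pathway role in the lit area, largest first, and the 3 nearest patterns of the lit RNMT and WTAP probes. Normexp used raw median signal, since mean signal was not in the columns used here. All 27 member probes carried an accession that RefSeq names alike. No coordinates are printed, because the array design and the reference annotation use different builds. The fit was tested on simulated data: of 200 changed probes among 7856, 75% of those at log2 1 and 97% of those at log2 2 were recovered, with 4.44% false calls. The simulated noise was independent between probes and held no effect of slide or array area. On the real arrays 48.5% of lit probes were called, so these rates do not carry over to them.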

Additional observations from a re-analysis of the deposited data

Results flagged for a closer look

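In 76 groups of 4 arrays, taken from the 27 member probes and the named pathway probes, 12 had 1 array far from the others by Dixon's test at its 95% critical value, which chance gives in about 1 group in 20. CONTROL 4 was that array in 8, CPE 3 in 3 and CPE 2 in 1. Values are log2 on the scale of the probe's area.

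CONTROL 4 read −2.54, which is its floor, at 4 member probes whose spots were dim on that array. The other CONTROL arrays were at 2.51 to 2.84 for WTAP A_73_P062569, at 0.68 to 0.93 for WTAP A_73_P076926, at 0.10 to 0.31 for METTL3 A_73_P046311 and at 1.34 to 1.55 for YTHDC1 A_73_P352186. In the lit area CONTROL 4 was at 1.00 for YTHDF3 A_73_P111016, with the others at 1.62 to 1.69. It was also low for METTL5 A_73_P506508 (−0.94, others −0.34 to −0.23), RBMX A_73_P327231 (−1.20, others 0.03 to 0.06) and DCPS A_73_105342 (−0.95, others −0.52 to −0.48).

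CPE 3 was high for RNMT A_73_P340091, at −0.64 with the others at −4.93 to −4.26, and low for YTHDF3 A_73_P273976 (−2.81, others −1.64 to −1.40) and CBLL1 A_73_115941 (−1.97, others −0.91 to −0.85). CPE 2 was low for WTAP A_73_P309891, at −0.35 with the others at −0.16 to −0.15.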

How the results depend on the processing

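The filters and the replicate block cannot change a member's difference and were not counted. Of 359 other recomputed member differences, 324 moved by less than the spread between arrays, 29 by more, and 6 that had exceeded it turned round. The 6 were those of WTAP A_73_P309891 (−0.94 with scaling over the whole array, −0.93 in the authors' deposited table), YTHDF1 A_73_P074121 (−0.75 in both) and YTHDF3 A_73_P111016 (−0.60 and −0.59). Within the lit area WTAP A_73_117005 stayed between 1.47 and 2.07 and RNMT A_73_103531 between 1.73 and 2.57, the lowest with normexp. Of 211 recomputed calls of named pathway probes, 183 held, 28 were lost and 0 turned round. Differences smaller than that spread also changed sign, those of METTL14 A_73_P048876 (−1.47 to 0.68) and FTO A_73_104006 (−0.50 to 1.26) when 1 array was left out, of METTL14 A_73_P206317 (0.094) and YTHDF3 A_73_P338856 (0.11) with normexp, and of ALKBH5 A_73_P065481 (0.13) and YTHDF3 A_73_P072926 (0.52) without scaling. VIRMA lost its call under 9 settings, FMR1 A_73_P310271 under 6, FMR1 A_73_P077911 and DCP1A A_73_109784 under 3, ZC3H13 and DCPS under 2, and DCP1A A_73_114513, DCP1B and RBMX under 1, while 2 of the 11 named pathway probes lost none. Of the lost calls 8 were without scaling and 6 with normexp.

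Probes called in the lit area numbered 3848, against 1468 without scaling, 1660 with normexp and 3212 to 4440 when 1 array was left out. Over the whole array 5807 were called, against 3130 with normexp, 3678 (205 higher, 3473 lower) with the filter on all 8 arrays and 3758 to 6873 when 1 array was left out, the lowest without CONTROL 2. Pathway probes called in the lit area were 13, against 8 with a lit limit of 1, 4 without scaling, 8 with normexp and 10 to 15 with 1 array left out. Over the whole array they were 20, against 12 without scaling, 7 with normexp and 10 to 25 with 1 array left out, with 10 without CONTROL 2, 12 without CONTROL 3, 10 without CONTROL 4 and 11 without CPE 2. The cause was not tested. The median over all probes shifted by −0.18 without scaling and 0.10 with local centring in the lit area, and by 0.95 without scaling, 0.47 with normexp and 0.19 with quantile normalization over the whole array. Without the filter on dim probes the lit split was 1978 higher and 3522 lower. With neighbours by scanned position, chosen after seeing the data, 3902 lit probes were called, and without CPE 3 and CONTROL 4, also chosen then, 4998 lit and 19 lit pathway probes.

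Same-numbered arrays of the groups did not deviate together (correlations −0.10, −0.14, 0.23 and 0.37), so the numbers do not pair them. With the replicate number as a block, 3688 probes were called in the lit area and 7022 over the whole array, with 12 and 26 pathway probes. Slide as a block was not run, because each slide holds 1 group. Dim surroundings limit 19 of the 27 member probes, and METTL3, YTHDC1, ALKBH5 and FTO entirely.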
